A study of Drosophila melanogaster with 8 samples.

Results

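The 6 genes described here encode chloride channels of 3 families and were chosen by name, through their CG numbers. They are the CLC genes ClC-a (CG31116, chromosome arm 3R), ClC-b (CG8594, 2R) and ClC-c (CG5284, 3L), the ligand-gated-type gene SecCl (CG7589, 3L), and the bestrophins Best1 (CG6264, 3R) and Best2 (CG10173, 3L). These are 6 of the 13942 genes in the files, and all 6 were among the 12580 genes tested. RNA was sequenced from Malpighian tubules of adult D. melanogaster in 8 libraries, 2 for each of African females, African males, European females and European males. The African flies came from Zimbabwe and the European flies from the Netherlands, and each library was a pool of tubules from many isofemale lines of its population, so that a value is an average over lines and not that of 1 genotype. The labels name no mutation and no treatment, and all flies were kept at 22° with 14 h of light and 10 h of dark and, per the labels, were 2 to 4 days old. The study's methods give an older age range than the labels. The 2 replicates of a group came from separate dissections.

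The Malpighian tubules are the excretory organ of the fly and make urine by secreting ions, with water following. Principal cells, the larger cell type, carry the V-ATPase that drives cation secretion, and stellate cells are the route that chloride and water take. Kinin hormones and tyramine raise calcium in stellate cells and thereby raise the chloride conductance. ClC-a is a plasma membrane channel of the CLC-2 type in stellate cells, and SecCl is a chloride channel of the Cys-loop receptor family that is also found in them. Bestrophins are chloride channels gated by calcium, and fly Best1 also responds to cell swelling in cultured cells. ClC-b and ClC-c resemble mammalian CLC proteins of lysosomes and endosomes, which exchange chloride for protons across the membranes of these compartments.

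Each library held between 19528634 and 27099855 reads assigned to genes. The labelled tissue was visible in its own markers. All 9 markers of principal cells and all 8 of stellate cells on the lists were detected in every library, with a mean of 2737 RPKM for Uro, the urate oxidase of principal cells. RPKM is the number of reads of a gene scaled by transcript length in kilobases and by the mapped reads of the library. Genes of other tissues were not at 0, and some moved with the groups. The summed level of 8 testis genes was 0.626 to 1.07 RPKM in females and 6.05 to 38.2 in males. Of these, 6 were called higher in males, and Mst84Db, ocn, ProtA and ProtB had no read in at least 1 library. The summed level of 6 fat body genes was 861 to 1610 RPKM in females and 8.15 to 21.9 in males, with 4 called lower in males. The summed level of 6 midgut genes was 1548 RPKM in the first replicate of African males and 419 in the second. It was 25.7 to 96.8 RPKM in the other libraries. Not all 6 genes were high in the second replicate, where betaTry (4.27 RPKM) and LManII (2.03 RPKM) had their lowest values of all libraries. Of the 6 midgut genes, Amy-p and Amy-d were called for the interaction of sex and population (log2 differences -5.96 and -6.1, limma adjusted p = 0.0347 for both).

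Smaller shifts were seen in the lists for other tissues. The summed level of 9 neuron and photoreceptor genes was 9.21 to 13.5 RPKM in Africa and 5.98 to 8.36 in Europe, with 2 called lower in Europe, Syt1 (log2 fold change -1.12, limma adjusted p = 0.00131) and ninaE (-1.72, adjusted p = 0.0148). The latter was also higher in males (1.45, adjusted p = 0.0285). Rh3 and Rh4 had no read in at least 1 library, and the pan-neuronal gene elav was at 1.78 to 2.27 RPKM and not called. The summed level of 4 glia genes was 31.7 to 37.2 RPKM in females and 26.5 to 30.9 in males, with Eaat1 called lower in males (-0.43, adjusted p = 0.0103), while the glial regulator repo was at 0.0829 to 0.179 RPKM. Of 5 muscle genes, summed to 66.3 to 96.2 RPKM in females and 57.4 to 93.2 in males, Mlp84B was called lower in males (-0.45, adjusted p = 0.0217). None of 4 hemocyte genes was called for either factor, with the lowest limma adjusted p, 0.0991, for Hml and sex. Over all genes, 11.9% were called for each factor. The part of these tissues in the results for the channel genes was not tested. Results are also given without the first replicate of African males, and the comparisons of sex within Europe and of population within females hold no African male library. In whole tubules, fewer cells of a type and less RNA per cell cannot be told apart.

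The 6 genes fell into an abundant set and a scarce set. SecCl had the highest mean level over the 8 libraries, 98.1 ± 8.1 RPKM (SD, n = 8), followed by ClC-a at 89.0 ± 9.21, ClC-c at 75.4 ± 5.25 and Best1 at 47.1 ± 11.5. ClC-b, at 9.55 ± 0.79 RPKM, and Best2, at 6.67 ± 1.4, were well below them. On this scale 6.84% of the genes tested had a higher mean than SecCl, 12.1% a higher mean than Best1 and 42.9% a higher mean than Best2. The levels are divided by the length of the longest transcript, so a gene expressed mainly as shorter transcripts is understated. In another annotation release, transcripts ran from 3613 to 4444 bases for ClC-a and from 1950 to 2249 for SecCl. Which transcripts were expressed was not examined, and the order of genes with close levels can depend on it. These lengths were 4444 bases for ClC-a, 2647 for ClC-b, 3962 for ClC-c, 2249 for SecCl, 3269 for Best1 and 3547 for Best2.

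**Figure D1:**
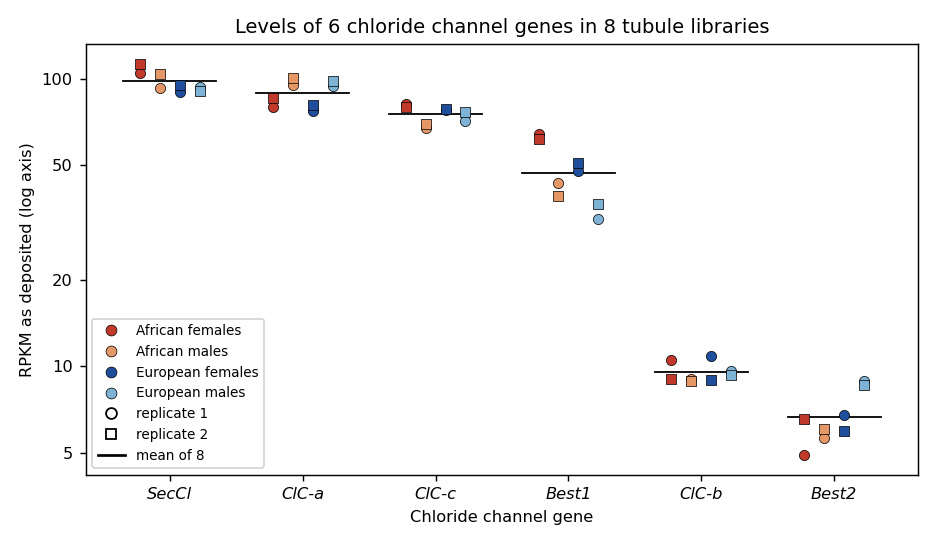
Level of each of the 6 chloride channel genes in each of the 8 libraries, in RPKM as deposited on a log axis; color marks the group, shape the replicate and the line the mean of 8. SecCl, ClC-a and ClC-c sit close together between 67.3 and 113 RPKM, Best1 spreads from 32.5 to 64.2, and ClC-b and Best2 lie below 11.

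The order of neighbors was not equally firm. SecCl was above ClC-a in 5 libraries and below it in the other 3, all of which were male, and ClC-c was above ClC-a in 2 libraries, the first replicates of both female groups. The range of ClC-a therefore overlapped those of both SecCl and ClC-c, while SecCl was above ClC-c in 8 of 8 libraries with no overlap of their ranges. Best1 was below ClC-c and above ClC-b in 8 of 8 libraries with no overlap of their ranges. ClC-b was above Best2 in 8 of 8 libraries, but the lowest ClC-b value, 8.86 RPKM, did not exceed the highest Best2 value, 8.88. The order of the lower 3 genes was thus the same in every library, while ClC-a took the first place in 3 of the 4 male libraries and in no female library.

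The genes also differed in how well they were measured. ClC-a collected 72666 reads over the 8 libraries, ClC-c 54792, SecCl 40581 and Best1 28338, against 4596 for ClC-b and 4326 for Best2. The 2 replicates of a group differed by 4.08% to 6.74% for ClC-a and by 3.04% to 28.7% for Best2, where counting error alone gives a standard deviation of 1.5% and 6.21% for such a difference. The replicates of ClC-b differed by 2.19% to 20.3%, with a counting standard deviation of 5.91%. These counting values do not cover differences between dissections or libraries.

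Among the 2 channels known from the stellate cell, ClC-a was male-biased and SecCl was not called for sex. Female libraries had ClC-a levels of 79.9 and 85.5 RPKM in Africa and 77.2 and 80.9 in Europe. Male libraries had 95.5 and 101 RPKM in Africa and 94.4 and 98.4 in Europe. The 4 male libraries were all above the 4 female libraries, and the populations overlapped. The male mean was 97.2 ± 2.77 RPKM and the female mean 80.9 ± 3.47 (SD, n = 4 each). All 4 male libraries lay above the female ones for 8.04% of all genes. With population in the model, the log2 fold change of males over females was 0.29 (SE 0.05, 95% interval 0.17 to 0.41), or 1.22-fold, with an adjusted p of 0.0134 in limma with Benjamini-Hochberg adjustment over all genes tested. Over all genes, 11.9% were called for sex, 7.71% as higher and 4.15% as lower in males. Of the 6 channel genes, 1 was called higher and 1 lower in males, a share above that background that rests on 2 genes. The change was modest, since 31.2% of the genes tested had a larger absolute log2 fold change for sex. The call was kept with each library left out, but the adjusted p then ran from 0.0143 to 0.0488. It was lowest without the first replicate of African males (log2 fold change 0.32) and nearest the threshold without the second replicate of European males (0.27).

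The sex difference of ClC-a did not detectably differ between the populations. The log2 fold change of males over females was 0.28 in Africa (SE 0.09, limma adjusted p = 0.306) and 0.30 in Europe (SE 0.05, adjusted p = 0.0496), where the fits of 4 libraries called 0.453% and 6.88% of all genes. The European call lay at the threshold and was kept in only 4 of 15 alternatives. Among others, it was lost with a pseudocount of 1 (limma adjusted p = 0.0517) or 0.01 (adjusted p = 0.063). With 1 European library left out, in a model of all 4 groups, the value was 0.26 to 0.33. The difference between the 2 sex effects was 0.01 (95% interval -0.25 to 0.27, adjusted p = 0.994). For population, ClC-a had a log2 fold change of Europe over Africa of -0.13 (SE 0.05, adjusted p = 0.139), which was not called, and the fit with the replicate number as a block called it with an adjusted p of 0.0421. With RPKM as deposited the value was -0.04 (adjusted p = 0.464).

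SecCl had 105 and 113 RPKM in African females and 92.7 and 104 in African males. The European libraries had 90.3 and 95.4 RPKM for females and 93.7 and 91.0 for males. The African females held the 2 highest values, and the 2 sexes overlapped. For sex the log2 fold change of males over females was -0.06 (SE 0.06, 95% interval -0.21 to 0.09, limma adjusted p = 0.642), so that a difference of the size seen for ClC-a lies outside the interval. It was 0.01 without the first replicate of African males.

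For population SecCl lay at the threshold. The mean was 104 ± 8.26 RPKM in Africa and 92.6 ± 2.39 in Europe (SD, n = 4 each), with an overlap in the deposited RPKM, since the first African male library was below the second European female library and the first European male library. After scaling for library composition the 4 European values were all below the 4 African values, as was the case for 7.8% of all genes. The log2 fold change of Europe over Africa was -0.24 (SE 0.06, 95% interval -0.39 to -0.09), and the limma adjusted p of 0.0507 did not pass 0.05. It was called in 4 of 18 alternative fits, among them the fit with the replicate block (adjusted p = 0.0341) and the fit without the first replicate of African males (log2 fold change -0.31, adjusted p = 0.0095). Within females the value was -0.30 (adjusted p = 0.144) and within males -0.19 (adjusted p = 0.403).

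**Figure D2:**
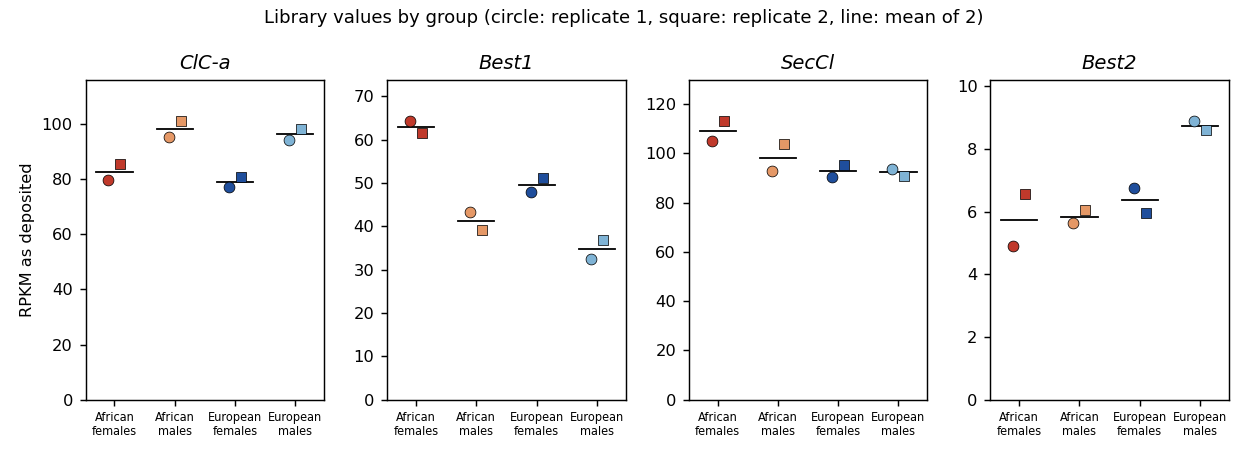
RPKM as deposited of ClC-a, Best1, SecCl and Best2 in the 2 libraries of each group, each panel from 0 on its own scale; circles are replicate 1, squares replicate 2 and lines the mean of 2. ClC-a is higher in males of both populations, Best1 falls from 64.2 and 61.6 in African females to 32.5 and 36.8 in European males, and Best2 is highest in European males.

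The bestrophin Best1 was the channel gene with the clearest differences, lower in males and lower in Europe. Its female libraries had 64.2 and 61.6 RPKM in Africa and 47.9 and 51.1 in Europe. Its male libraries had 43.4 and 39.1 RPKM in Africa and 32.5 and 36.8 in Europe. Every male library was below every female library, and within each sex the European libraries were below the African ones. The highest library was 1.98 times the lowest, against 1.3 times for ClC-a and 1.22 times for ClC-c.

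For sex the log2 fold change of Best1, males over females, was -0.54 (SE 0.05, 95% interval -0.66 to -0.42), or 1.45-fold lower in males, with a limma adjusted p of 0.00242. Of the genes tested, 17.9% had a larger absolute log2 fold change for sex, and 5.91% had all 4 male libraries below the 4 female ones. The value was -0.57 within Africa (SE 0.06, adjusted p = 0.0828) and -0.51 within Europe (SE 0.09, adjusted p = 0.0409). These fits called 0.453% and 6.88% of all genes. In a limma model of all 4 groups the African value passed (adjusted p = 0.0197). The European call was kept in 8 of 15 alternatives and was lost, among others, with a pseudocount of 0.01 (limma adjusted p = 0.0553). With 1 European library left out, in a model of all 4 groups, the European value was -0.6 to -0.41. In the fit with sex and population the call was kept in 18 of 18 alternatives, with log2 fold changes from -0.58 to -0.51. It was -0.54 without the first replicate of African males (adjusted p = 0.00748).

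For population the log2 fold change of Best1, Europe over Africa, was -0.38 (SE 0.05, 95% interval -0.51 to -0.26), or 1.31-fold lower in Europe, with a limma adjusted p of 0.00441. Over all genes, 11.9% were called for population, 6.49% as higher and 5.45% as lower in Europe, and Best1 was 1 of 6 channel genes called, a share close to this background. The call was kept in 18 of 18 alternatives, with log2 fold changes from -0.43 to -0.3. It was -0.42 within females (SE 0.06, adjusted p = 0.0633) and -0.35 within males (SE 0.09, adjusted p = 0.171), in fits that called 1.66% and 1.11% of all genes. The sex difference of Best1 did not detectably differ between the populations (0.07, 95% interval -0.19 to 0.33, adjusted p = 0.95).

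Best2, the scarcer bestrophin, had its highest levels in European males but was not called. Female libraries had Best2 levels of 4.91 and 6.56 RPKM in Africa and 6.77 and 5.97 in Europe. Males of the African population had 5.65 and 6.04 RPKM, and those of the European population 8.88 and 8.61. The 2 European male libraries were above all 6 others, which overlapped each other. The share of all genes with this pattern was not counted. The log2 fold change of Best2 was 0.27 for males over females (SE 0.13, limma adjusted p = 0.222) and 0.28 for Europe over Africa (SE 0.13, adjusted p = 0.2). Without the second replicate of African females, these were 0.40 (adjusted p = 0.0421) and 0.41 (adjusted p = 0.0381), so that 1 library decided both calls. The sex difference was 0.08 within Africa (adjusted p = 0.896) and 0.46 within Europe (adjusted p = 0.0669). In limma voom the European value was called (0.48, adjusted p = 0.0378), while leaving out any 1 European library gave adjusted p from 0.302 to 0.487. The difference between the sex differences of the populations was 0.38 (95% interval -0.16 to 0.93, adjusted p = 0.796). It was 0.16 without the second and 0.61 without the first replicate of African females.

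The ratio of the 2 bestrophins was lowest in European males. The ratio of Best1 to Best2 RPKM was 13.1 and 9.39 in female libraries from Africa and 7.07 and 8.57 in those from Europe. It was 7.67 and 6.47 in male libraries from Africa and 3.66 and 4.28 in those from Europe. The European male ratios were below all others, while those of African males and European females overlapped, as did the sexes and the populations as a whole. The ratio was not tested. For the stellate cell channels, the ratio of SecCl to ClC-a RPKM was 1.17 to 1.32 in the female libraries and 0.925 to 1.03 in the male libraries, with no overlap. A ratio within a library does not depend on the scaling between libraries, but it does not say which of its genes changed. How often other pairs of genes show such separations by sex or by group was not counted.

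**Figure D3:**
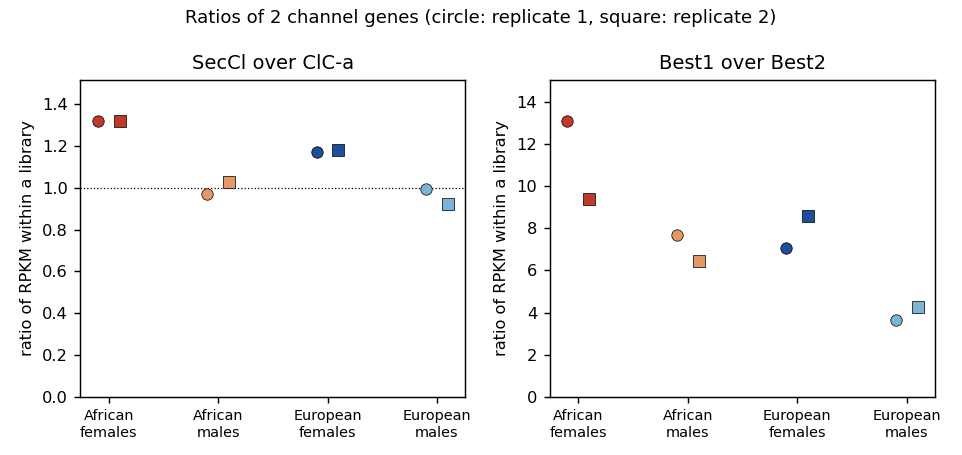
Ratio of the RPKM of SecCl to that of ClC-a and of Best1 to that of Best2 within each library, by group; circles are replicate 1 and squares replicate 2, axes start at 0 and the dotted line marks a ratio of 1. SecCl over ClC-a is 1.17 to 1.32 in females and 0.925 to 1.03 in males, and Best1 over Best2 goes from 13.1 in an African female library to 3.66 in a European male library.

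The CLC genes of intracellular type varied little. ClC-c had 81.8 and 79.6 RPKM in the female libraries from Africa and 78.2 and 78.5 in those from Europe. Its male libraries had 67.3 and 69.5 RPKM in Africa and 71.6 and 76.8 in Europe. All 4 male libraries were below all 4 female libraries, as was the case for 5.91% of all genes after scaling. The nearest scaled values were 75.3 in a male and 75.5 in a female library, both European. The log2 fold change of -0.13 (SE 0.05, 95% interval -0.25 to -0.02) did not pass the test (limma adjusted p = 0.124). For Europe over Africa it was -0.05 (95% interval -0.16 to 0.06, adjusted p = 0.555).

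ClC-b had 10.5 and 9.02 RPKM in the female libraries from Africa and 10.9 and 8.94 in those from Europe. Its male libraries had 9.05 and 8.86 RPKM in Africa and 9.66 and 9.37 in Europe. The first replicate of each female group was the highest of its population, and the groups overlapped. The log2 fold change was -0.06 for sex (95% interval -0.24 to 0.11, limma adjusted p = 0.653) and -0.03 for population (95% interval -0.21 to 0.15, adjusted p = 0.825). Exons of ClC-b and of Sin3A lie on opposite strands of the same stretch, as do exons of ClC-c and CG13074. The sources used here do not say that strand was kept in counting, so reads of these overlapping genes cannot be told apart there. The other 4 genes had no exon overlap with another annotated gene. These overlaps are from another annotation release than the one the reads were mapped to, so they may differ from those in the counting.

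**Figure D4:**
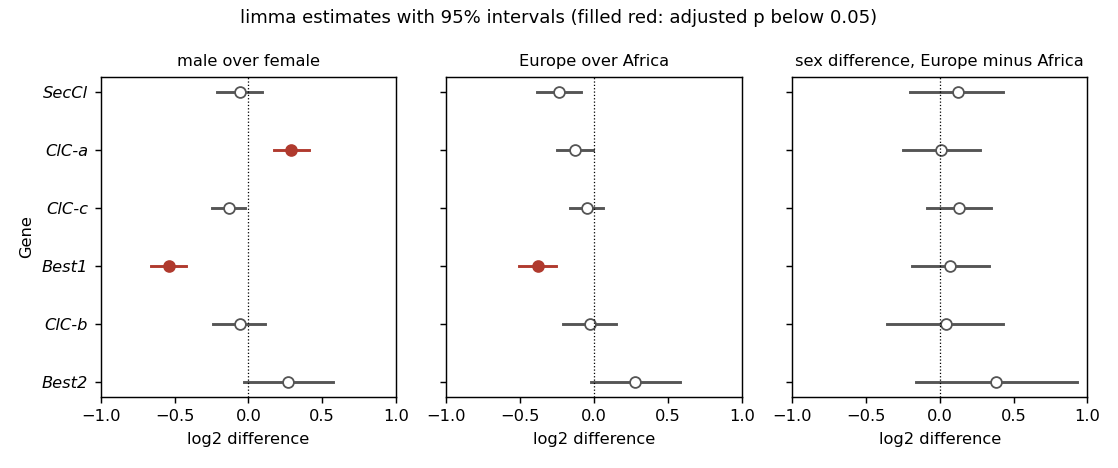
Log2 differences of the 6 genes with 95% intervals from limma, for males over females, for Europe over Africa and for the sex difference in Europe minus that in Africa; filled red points have an adjusted p below 0.05. ClC-a (0.29) and Best1 (-0.54) are called for sex, Best1 (-0.38) for population, and none of the 6 for the interaction.

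None of the 6 genes was called for the interaction of sex and population in limma, with adjusted p from 0.796 to 0.994 and no unadjusted p below 0.05. Over all genes, 0.0556% were called for the interaction by limma on log2 values and 7.66% had an unadjusted p below 0.05, and limma voom on reads called 1 gene and none of the 6.

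Marker lists of the 2 tubule cell types were set beside the channel genes. All counts and medians of the stellate list hold ClC-a and SecCl themselves, so they are not independent of these genes. Among the 8 stellate cell markers, which include ClC-a and SecCl, 2 were called higher in males and 0 lower, and for population 0 were higher in Europe and 3 lower. These were ClC-a and the aquaporin Prip (log2 fold change 0.25, adjusted p = 0.0238) for sex, and for population the tyramine receptor TyrR (-0.39, adjusted p = 0.034) and the aquaporins Drip (-0.37, adjusted p = 0.0115) and Prip (-0.33, adjusted p = 0.00821). Over all genes, 11.9% were called for each factor. The median log2 fold change of the stellate list was 0.09 for sex and -0.29 for population, against 0.01 and 0 for all genes. Without the first replicate of African males, 4 of these markers were called higher in males and 5 lower in Europe. Of the 9 principal cell markers, 2 were called lower in males and 5 lower in Europe, with medians of -0.17 and -0.25. Without the same library these counts were 0 and 4. With the replicate block, 5 stellate markers were lower in Europe and 1 principal cell marker was lower in males, and with RPKM as deposited these counts were 2 and 4.

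Relative to the geometric mean of the other 6 stellate markers, ClC-a was at 3.8 to 4.49 in females and 4.45 to 5.32 in males, and the sexes overlapped. Relative to the principal cell markers it was at 0.161 to 0.181 in females and 0.227 to 0.252 in males, with no overlap. SecCl relative to the other stellate markers was at 4.83 to 5.25 in Europe and 4.32 to 5.38 in Africa, so its population ranges overlapped on this scale. By sex it was at 4.32 to 4.92 in males and 4.99 to 5.38 in females, with no overlap, while its own level was not called for sex. Relative to the principal cell markers the sexes overlapped for SecCl, at 0.221 to 0.239 in males and 0.202 to 0.223 in females. Best2 relative to the other stellate markers was at 0.32 to 0.466 in Europe and 0.233 to 0.313 in Africa, with no overlap. Relative to the principal cell markers its populations overlapped, at 0.0134 to 0.022 in Europe and 0.0099 to 0.0139 in Africa. Best1 relative to the same stellate markers was at 2.74 to 3.05 in females and 1.67 to 2.02 in males, and relative to the principal cell markers at 0.107 to 0.13 and 0.0786 to 0.103. The sex difference of Best1 was thus present against both lists. For population, Best1 over the stellate markers was 3.05 and 2.94 in African and 2.79 and 2.74 in European female libraries, and 2.02 and 1.81 in African and 1.67 and 1.99 in European male libraries. Over the principal cell markers it was 0.13 and 0.122 against 0.107 and 0.115 in females, and 0.103 and 0.0902 against 0.0786 and 0.0942 in males. On both scales the populations were separate in females and overlapped in males. The share of all genes whose ranges separate on such ratios was not counted. The marker lists themselves had medians away from that of all genes, as given above.

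Of the 22 other chloride channel genes listed, 21 were tested, and 12 of the 22 had a mean under 1 RPKM. Only 1 was called for sex, the anoctamin CG10353, with a female mean of 9.46 ± 0.541 RPKM and a male mean of 6.74 ± 0.407 (SD, n = 4 each, log2 fold change -0.46, limma adjusted p = 0.00754). Its 4 male libraries, at 6.48 to 7.34, were below the 4 female ones, at 8.93 to 10.1. For population, 3 were higher in Europe and 0 lower, where 11.9% of all genes were called for each factor. The alkaline-gated channel gene alka had 3.85 ± 0.439 RPKM in Africa and 14.7 ± 4.24 in Europe (log2 fold change 1.78, adjusted p = 0.00176), the largest population difference of the list. Its highest values, both European, were 11.4 RPKM in females and 18.8 in males. Its interaction of sex and population was 0.97 (SE 0.13, limma adjusted p = 0.158) and was not called. Within Europe, 1 gene of the list was called higher in males, where 6.88% of all genes were called. The glutamate-gated GluClalpha (log2 fold change 1.20, adjusted p = 0.00429) and the pH-gated pHCl-1 (0.91, adjusted p = 0.0313) were higher in Europe at low levels, with 0.253 and 0.303 RPKM in Africa against 0.756 and 0.694 in Europe. Without the first replicate of African males the list had 2 genes lower in males and 2 higher in Europe. The most abundant other channel, pHCl-2, had 65.1 RPKM over the 8 libraries and was called for neither factor (-0.11 for sex, adjusted p = 0.632, and 0.04 for population, adjusted p = 0.856). The list's median log2 fold change was 0.02 for sex and 0.04 for population.

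Among 14 chloride cotransporters, exchangers and their kinases, 1 was called higher and 1 lower in males, and 2 were higher and 1 lower in Europe. Over all genes, 11.9% were called for each factor, and the counts of this list rest on few genes. The cation-chloride cotransporter gene NKCC had 4.88 ± 0.651 RPKM in females and 8.17 ± 1.89 in males (log2 fold change 0.73, limma adjusted p = 0.0205). CG9702, of the SLC26 family of anion exchangers, had 290 ± 13.3 RPKM in females and 198 ± 24.7 in males (log2 fold change -0.53, adjusted p = 0.0111). Its relatives CG9717 and CG5002 were higher in Europe, with 104 ± 13.2 against 182 ± 8.62 RPKM (0.73, adjusted p = 0.00283) and 324 ± 6.06 against 417 ± 14.4 RPKM (0.28, adjusted p = 0.00508). Wnk, a chloride-sensing kinase, was lower in Europe (-0.18, adjusted p = 0.0403), and fray, the kinase it acts on, was called for neither factor. The Wnk call was lost with the replicate block, with the deposited scaling and without the first replicate of African males, each of which left 0 genes of this list lower in Europe.

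**Figure D5:**
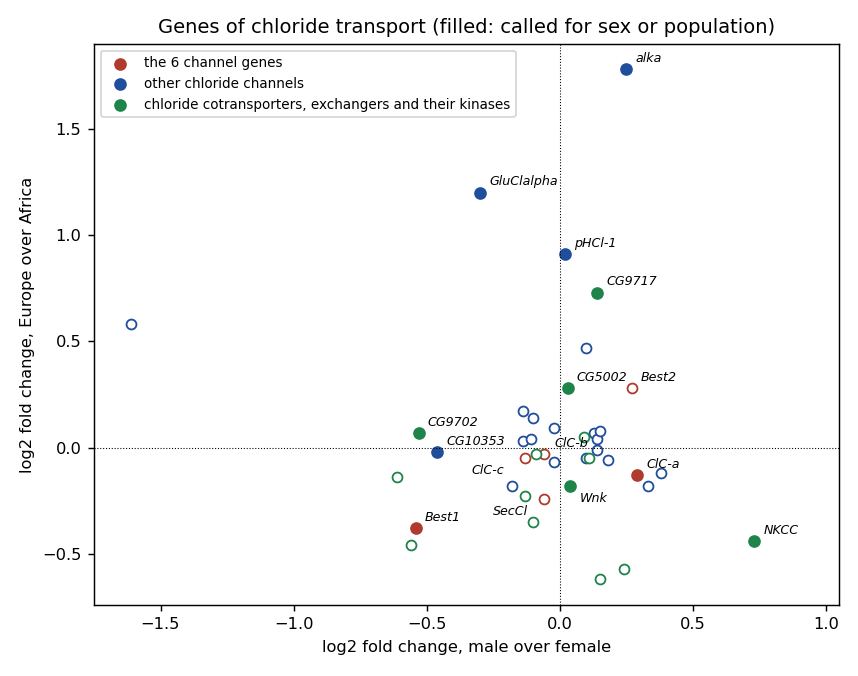
Log2 fold change for sex against that for population of the 6 channel genes (red), 21 other chloride channel genes (blue) and 14 chloride cotransporters, exchangers and their kinases (green); filled points were called for either factor and are named. Best1 lies at -0.54 and -0.38, ClC-a at 0.29 and -0.13, and alka, at 1.78 for population, is the highest point.

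Of 9 genes of kinin and tyramine signaling to the stellate cell, 0 were called for sex, where 11.9% of all genes were called for each factor. For population TyrR, the tyramine receptor, and Tdc1, which makes tyramine in principal cells, were lower in Europe (log2 fold changes -0.39 and -0.29, limma adjusted p = 0.034 and 0.0274), and the G protein subunit gene Galphaq was higher (0.27, adjusted p = 0.0225). With RPKM as deposited, 1 of this list was higher and 0 were lower in Europe. Without the first replicate of African males, 1 was higher in males, and 1 was higher and 3 were lower in Europe. Lkr, the kinin receptor, had 23.8 ± 1.83 RPKM in Africa and 22.3 ± 2.04 in Europe (SD, n = 4 each) and was not called. The medians of the list were 0 for sex and -0.01 for population.

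The channel genes did not vary as a single set across the 8 libraries. Over these libraries, which share sex, population and depth as sources of variation, the Pearson correlation of log2 values was 0.80 between Best1 and ClC-c and -0.76 between Best1 and Best2. It was 0.32 between ClC-a and SecCl. The genes most like ClC-a among 9779 ranked were sprt (r = 0.988), Pde9 (0.984) and JIL-1 (0.983), and those most like Best1 were Top1 (0.986), Myc (0.983) and CrebB (0.973). CG10344 (0.977), pasha (0.971) and Rubicon (0.967) were most like SecCl, and CkIIbeta (0.968), Arfrp1 (0.962) and muskelin (0.96) most like ClC-c. For the scarce genes these were Zip99C (0.965), CG5910 (0.915) and CG32645 (0.914) for ClC-b, and Vps50 (0.966), CG11168 (0.963) and CG8042 (0.943) for Best2. With 8 libraries and so many genes, high values are found for any pattern, and they are given as a description only.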

How the data were processed

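The 8 files, 1 per library, hold RPKM that the authors computed from 50-base single-end reads. They mapped the reads with NextGenMap to FlyBase transcripts, assigned a read that hit any isoform to its gene, and divided by the longest transcript. Reads were worked back from RPKM, and 100% of values above 0 were whole reads (tolerance 0.01). The 12580 genes tested had at least 12 reads in all. The deposited RPKM of each library was scaled by its TMM factor (0.928 to 1.04), and log2(value + 0.1) was fitted in limma 3.58.1 (R 4.3.3) with an intensity trend, with sex and population in the model, the interaction in a second model and 1 factor within each stratum. Adjusted p-values are Benjamini-Hochberg over these genes, called at 5%. Because of the pseudocount, fold changes understate those of low genes. Levels in the report are deposited RPKM and summed marker levels are scaled RPKM.

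Named genes were the 6 members, up to 4 genes per list and contrast with the smallest adjusted p where any passed, and the 3 genes most like each member. Uro, pHCl-2, fray, Lkr, elav, repo and the genes with no read in a library fall outside this rule and were named after their values were seen. Members and lists were chosen with earlier results of these data known. CG numbers were paired with names by the gene table supplied with the genome annotation. Replicate numbers come from the sample titles, and a pairing of replicates across groups was not established. Replicate differences of all pairs of groups correlated (0.14 to 0.47 over 9785 genes), so a replicate block was fitted as an alternative. The first replicate had fewer reads than the second in every group, and the part of depth in this correlation was not tested. The fit was tested on simulated data. Sequences and coordinates are not used here.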

Additional observations from a re-analysis of the deposited data

Results flagged for a closer look

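Each of the 6 genes was examined in 4 sets of 4 libraries, females, males, Africa and Europe, for a library far from the other 3 (Dixon's criterion at 95%). Of the 24 sets, 1 had such a library. ClC-b had 10.5 RPKM in the first replicate of African females, against 8.86 to 9.05 in the other African libraries. Chance gives about 1 in 20 such sets, and the library rests on 546 reads for ClC-b.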

How the results depend on the processing

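Under 18 alternatives (pseudocount, filter on reads, scaling, voom, no intensity trend, replicate block and each library left out, 1 of them, TMM factors from all genes of the files, chosen after seeing the data), ClC-a for sex and Best1 for both factors stayed called. With RPKM as deposited, the median of all genes for population moved from 0.005 to 0.085 and the share of calls higher in Europe from 54.4% to 77.3%. Under it ClC-a for population moved from -0.13 to -0.04, ClC-b turned to 0.05 and ClC-c to 0.04 for population, SecCl to -0.01 for sex in Europe, and ClC-b to 0.02 in females and 0.09 in males (0 with median-of-ratios factors). SecCl for population (-0.24) was called with at least 100 reads (adjusted p = 0.0447), with voom (0.0451) and with the replicate block (0.0341). The block also called ClC-a for population (-0.13, 0.0421) and changed no other call of the 6 genes (those of the lists are given beside their counts). With 1 library left out, the ranges were, for sex, -0.09 to 0.01 (SecCl) and 0.2 to 0.4 (Best2), and for population -0.09 to 0.03 (ClC-b), -0.31 to -0.21 (SecCl) and 0.21 to 0.41 (Best2). For the interaction they were -0.07 to 0.09 (ClC-a), -0.1 to 0.18 (ClC-b), -0.01 to 0.24 (SecCl), -0.03 to 0.17 (Best1) and 0.16 to 0.61 (Best2). Within Africa the sex difference ranged from -0.18 to 0.01 (ClC-b), -0.24 to 0.01 (SecCl) and -0.14 to 0.3 (Best2), and within Europe from -0.19 to 0.1 (ClC-b) and -0.04 to 0.05 (SecCl). The population difference ranged in females from -0.19 to 0.09 (ClC-b) and -0.13 to 0.31 (Best2), and in males from -0.04 to 0.02 (ClC-b) and -0.05 to 0.08 (ClC-c). A lone library left in a group was taken to vary like the others. Comparisons within 1 population or sex used a model of all 4 groups when a library was left out, unlike their main fits. Over all genes, limma called 1492 for sex and 662 to 1349 with a library left out, 1503 and 828 to 1422 for population, and 7 and 0 to 9 for the interaction, where 964 had an unadjusted p below 0.05 with all libraries. For the interaction, deposited RPKM gave 2 genes, voom 1 and the fit with no trend 3. Within 1 population or sex, calls at 5% moved with these settings, ClC-a in Europe to adjusted p from 0.0338 to 0.32 and Best1 in Europe from 0.0165 to 0.146. At 4326 and 4596 reads, Best2 and ClC-b carry the largest counting error of the 6 genes, and the design has 4 libraries per level of a factor.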
